A study of Mus musculus with 9 samples.

Results

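The B cell receptor and B cell maturation genes were followed in the B cells of dissociated mouse livers, with their low levels in every other cell class as the background. The list named 9 genes: Cd79a, Cd79b, Ms4a1, Ighm, Ighd, Igkc, Fcer2a, Cr2 and Jchain. Of these, 6 were analysed among the 27998 genes of the count table; Ighm, Ighd and Igkc were not analysed here, and the totals behind every level and percent given here hold no immunoglobulin UMIs. B cells were set by Cd79a and Cd79b: cells were clustered without the listed genes, and clusters in which at least 50% of the cells held a unique molecular identifier (UMI, 1 counted RNA molecule) of Cd79a and at least 50% a UMI of Cd79b were taken. A single cluster met this, with 1159 of 8527 cells. Names of cell classes stand throughout for clusters that are like the named type by its marker genes. The values of Cd79a and Cd79b in B cells are therefore a description of how the cells were chosen, and only the other 4 genes were tested between groups.

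The livers came from C57BL/6 mice with the genotype ROSA26-rtTA-IRES-EGFP and either no YAP transgene (WT) or tetYAP, all fed doxycycline. WT mice (n = 2 libraries) were fed for 7 days, and tetYAP mice for 3 days (YAP3d, n = 4) or 7 days (YAP7d, n = 3), so no control had the 3-day feeding and none was without doxycycline. By the study's methods the line also carried Alb-Cre, which switches on the rtTA activator in cells of the hepatocyte lineage, so that a constitutively active YAP was made there and not by a B cell driver. Sex and age are not given in the sources used here. Each library is 1 GEO sample, taken as 1 mouse; where this does not hold, the p-values measure only the spread between these samples.

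Ms4a1, Cd79a and Cd79b define the mature B cell at the surface. CD79a and CD79b are the paired signalling chains that carry the activation motifs of the B cell receptor, whose antigen-binding part is a membrane immunoglobulin. MS4A1 is CD20, a surface protein of B cells that plasma cells lose. FCER2A is CD23, the low-affinity IgE receptor that marks follicular B cells, and CR2 is CD21, the complement receptor that lowers the threshold of the B cell receptor and is high in marginal zone B cells. JCHAIN joins secreted IgM or IgA into polymers and is made by plasma cells.

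The libraries held 281 to 2551 cells, with 1288940 to 25056881 UMIs, and the B cells of a library numbered 32 to 672, with 108730 to 2591890 UMIs. YAP3d replicate 4 alone held 672 of the 1159 B cells. B cells were between 2.51% and 26.3% of the cells of a library. The library YAP7d replicate 3 stood apart in depth: its smallest cell had 4041 UMIs, so all of its 46 B cells were above 4000 UMIs, whereas the median B cell had 2650.5 to 3614.5 UMIs in the other 8 libraries. Cell barcodes shared between libraries numbered 46, and 13 B cells carried one, with no barcode shared by a pair of B cells. All 12 markers of the B cell list were raised in the cluster, led by Cd79a, Ebf1, Ms4a1, Fcmr and Cd79b. The summed level of the 9 T cell markers in these B cells, of which 2 to 9 were found in a library, was 19.96 to 134 CPM (UMIs per 1000000 UMIs of the summed B cells), against 3889 CPM in the T cells. The 12 monocyte markers summed to 487 to 2672 CPM, against 39922 CPM in monocytes. The 12 neutrophil markers summed to 26.6 to 691 CPM, against 237576 CPM in neutrophils. Both were highest in YAP7d replicate 3. Plac8, a monocyte marker also in the marginal zone and B-1 list, alone stood at 379 to 1751 CPM. Markers of plasmacytoid dendritic cells summed to 2071 to 2835 CPM, against 16341 CPM in that class. For conventional dendritic cells the sum was 310 to 638 CPM, against 2712 CPM. Ly6d among the former and Irf8 among the latter are also in lists of B cell genes. Without called doublets and cells holding markers of other classes, 11 of the 46 B cells of YAP7d replicate 3 remained.

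The analysed genes lie on separate chromosomes of the mm10 build (RefSeq annotation of GRCm38.p6): Cd79a at chr7:24897497-24901858, Cd79b at chr11:106311341-106314562, Ms4a1 at chr19:11249679-11266149, Fcer2a at chr8:3680280-3694174, Cr2 at chr1:195136811-195176880 and Jchain at chr5:88519809-88527897. Promoter sequence is shown for the 4 genes that the RefSeq promoter table holds, because the levels of the first 3 of these genes followed each other over cell classes while Jchain did not. The 250 bases before a transcription start are printed 5′ to 3′ (GRCm38.p6), with matches to a searched motif in capitals. For Fcer2a the most upstream of 3 annotated starts is given. For Cr2 the table's only start is at base 195176719, while the annotated gene reaches base 195176880, so part of the printed window lies inside the gene.
Cd79a, chr7:24897247-24897496, plus strand: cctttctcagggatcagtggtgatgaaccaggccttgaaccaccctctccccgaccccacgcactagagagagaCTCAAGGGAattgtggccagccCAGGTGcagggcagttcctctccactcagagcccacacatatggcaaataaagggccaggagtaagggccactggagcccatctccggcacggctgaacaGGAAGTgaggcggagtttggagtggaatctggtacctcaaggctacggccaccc
Fcer2a, chr8:3694175-3694424, minus strand: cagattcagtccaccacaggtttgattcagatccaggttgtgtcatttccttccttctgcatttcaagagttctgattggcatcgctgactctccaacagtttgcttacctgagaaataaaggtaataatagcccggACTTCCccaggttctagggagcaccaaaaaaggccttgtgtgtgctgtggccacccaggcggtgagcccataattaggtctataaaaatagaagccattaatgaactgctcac
Cr2, chr1:195176720-195176969, minus strand: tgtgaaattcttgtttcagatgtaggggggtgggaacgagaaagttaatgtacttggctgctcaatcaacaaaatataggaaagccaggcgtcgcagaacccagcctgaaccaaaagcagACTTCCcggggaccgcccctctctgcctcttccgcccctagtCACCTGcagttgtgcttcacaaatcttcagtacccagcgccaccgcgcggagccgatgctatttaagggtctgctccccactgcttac
Jchain, chr5:88527898-88528147, minus strand: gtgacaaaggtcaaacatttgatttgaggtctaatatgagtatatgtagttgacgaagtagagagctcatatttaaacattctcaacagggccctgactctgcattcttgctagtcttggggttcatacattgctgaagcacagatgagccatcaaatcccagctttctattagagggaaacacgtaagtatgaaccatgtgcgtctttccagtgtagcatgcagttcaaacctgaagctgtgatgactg

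The motifs searched, on both strands, were the octamer ATGCAAAT bound by Oct factors, the EBF1 core CCCNNGGG and an EBF1-type pattern TCCCNNGAG, which can share bases, the E-box CAGGTG bound by E2A among others, the ETS motif GGAAGT and 2 kappa B patterns. Of all 32851 promoters, 17.2% hold the E-box, 19.7% the ETS motif and 5.99% the EBF1-type pattern. In the Cd79a promoter the EBF1-type pattern begins 176 bases, the E-box 154 bases and the ETS motif 54 bases before the start. In Cr2 the ETS motif begins 130 bases and the E-box 88 bases before the listed start, and both lie inside the annotated gene. In the Fcer2a promoter the ETS motif begins 113 bases before the start. The Jchain window held none of the motifs. The octamer is in 1.60% of all promoters, the EBF1 core in 11.8%, and the kappa B patterns in 0.980% and 0.265%, and none of these letters occurred in the 4 windows.

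Cd79a and Cd79b, the 2 chains that set the cells, were present in nearly every B cell and at similar levels in the 9 libraries. Cd79a stood at 2750 and 2664 CPM in WT, at 2728, 2637, 2462 and 3386 CPM in YAP3d, and at 2658, 3313 and 2941 CPM in YAP7d. Cd79b stood at 1721 and 1575 CPM in WT, at 2108, 1551, 1777 and 1771 CPM in YAP3d, and at 1830, 2189 and 1859 CPM in YAP7d. The groups overlapped for Cd79a. For Cd79b, YAP3d overlapped with both other groups, while every YAP7d library lay above both WT libraries, a difference that was not tested. A UMI of Cd79a was found in 99.8% and a UMI of Cd79b in 98.0% of the 1159 B cells, and the median B cell held 10 UMIs of Cd79a and 6 of Cd79b. Because a UMI is counted once per RNA molecule from its 3′ end, these levels were not divided by gene length.

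Ms4a1 (CD20) was the third most abundant of the analysed genes in B cells and did not differ detectably between groups. Its level was 1021 and 883 CPM in WT, 1160, 876, 1025 and 993 CPM in YAP3d, and 1150, 1098 and 543 CPM in YAP7d. Only YAP7d replicate 3, the library with the deeper cells, lay below the others, and the groups overlapped. The log2 fold change was 0.07 ± 0.24 (SE) for YAP3d against WT, with a 95% interval of −0.44 to 0.59, and −0.05 ± 0.25 for YAP7d against WT, with an interval of −0.59 to 0.49 (edgeR adjusted p = 0.99995 and 0.99992).

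Fcer2a (CD23) had the lowest mean in YAP7d, but the difference did not pass the test over all genes. It stood at 354 and 244 CPM in WT, at 381, 401, 265 and 299 CPM in YAP3d, and at 166, 306 and 126 CPM in YAP7d. Thus 2 of the 3 YAP7d libraries were below every other library, and the remaining one lay within the range of both other groups. The log2 fold change of YAP7d against YAP3d was −0.73 ± 0.29 (SE), with a 95% interval of −1.34 to −0.12, an unadjusted p of 0.0228 and an edgeR adjusted p of 0.664 over 2229 genes. Against WT it was −0.56 ± 0.33 (adjusted p = 0.997), and for YAP3d against WT 0.17 ± 0.30 (adjusted p = 0.99995).

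The library with the lowest Fcer2a, YAP7d replicate 3, also had the deepest B cells, with a median of 4995 UMIs, whereas YAP7d replicate 1 had a median of 3188 UMIs. In B cells with at least 4000 UMIs, Fcer2a stood at 90.3 CPM in WT replicate 2, at 184 CPM in YAP3d replicate 4 and at 336 CPM in the 11 such cells of YAP3d replicate 3. It was thus lower than in all B cells of the same library in 2 of these 3 libraries; every B cell of YAP7d replicate 3 was above 4000 UMIs. Macrophage markers summed to 304 to 669 CPM in the B cells of YAP7d, to 80.4 to 248 CPM in WT and to 51.6 to 199 CPM in YAP3d, against 19400 CPM in macrophages. Of the 12 markers, 9 to 12 were found in the libraries of YAP7d, 6 and 12 in those of WT and 4 to 12 in those of YAP3d, and Adgre1, which encodes F4/80, was at 0 in 5 of the 9 libraries. The log2 fold change of YAP7d against YAP3d was −0.41 without called doublets and cells holding markers of other classes, −0.50 without YAP7d replicate 3, −1.15 without YAP7d replicate 2 and −1.42 when every cell with a UMI of both Cd79 chains was taken. That last set took 176 cells of YAP7d replicate 3, with a median of 14751 UMIs, and only 46 of them were in the B cell cluster. The part of depth and of RNA from other cells in the Fcer2a difference was not tested.

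Cr2 (CD21) was the least abundant of the receptors, and its group differences were too imprecise to read. The B cells held 230 Cr2 UMIs in all, and the level was 64.3 and 53.3 CPM in WT, 159, 45.6, 59.0 and 49.8 CPM in YAP3d, and 64.4, 79.8 and 3.70 CPM in YAP7d. YAP3d replicate 1 was the highest, with 18 UMIs in 38 cells, and YAP7d replicate 3 the lowest, with 1 UMI in 46 cells. In B cells of at least 4000 UMIs the level was 24.9 CPM in WT replicate 2, 18.6 CPM in YAP3d replicate 3, 36.1 CPM in YAP3d replicate 4 and 3.70 CPM in YAP7d replicate 3. The log2 fold change was 0.28 ± 0.66 (SE) for YAP3d against WT, −0.43 ± 0.75 for YAP7d against WT and −0.71 ± 0.67 for YAP7d against YAP3d, with edgeR adjusted p of 0.99995, 0.997 and 0.973.

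**Figure D1:**
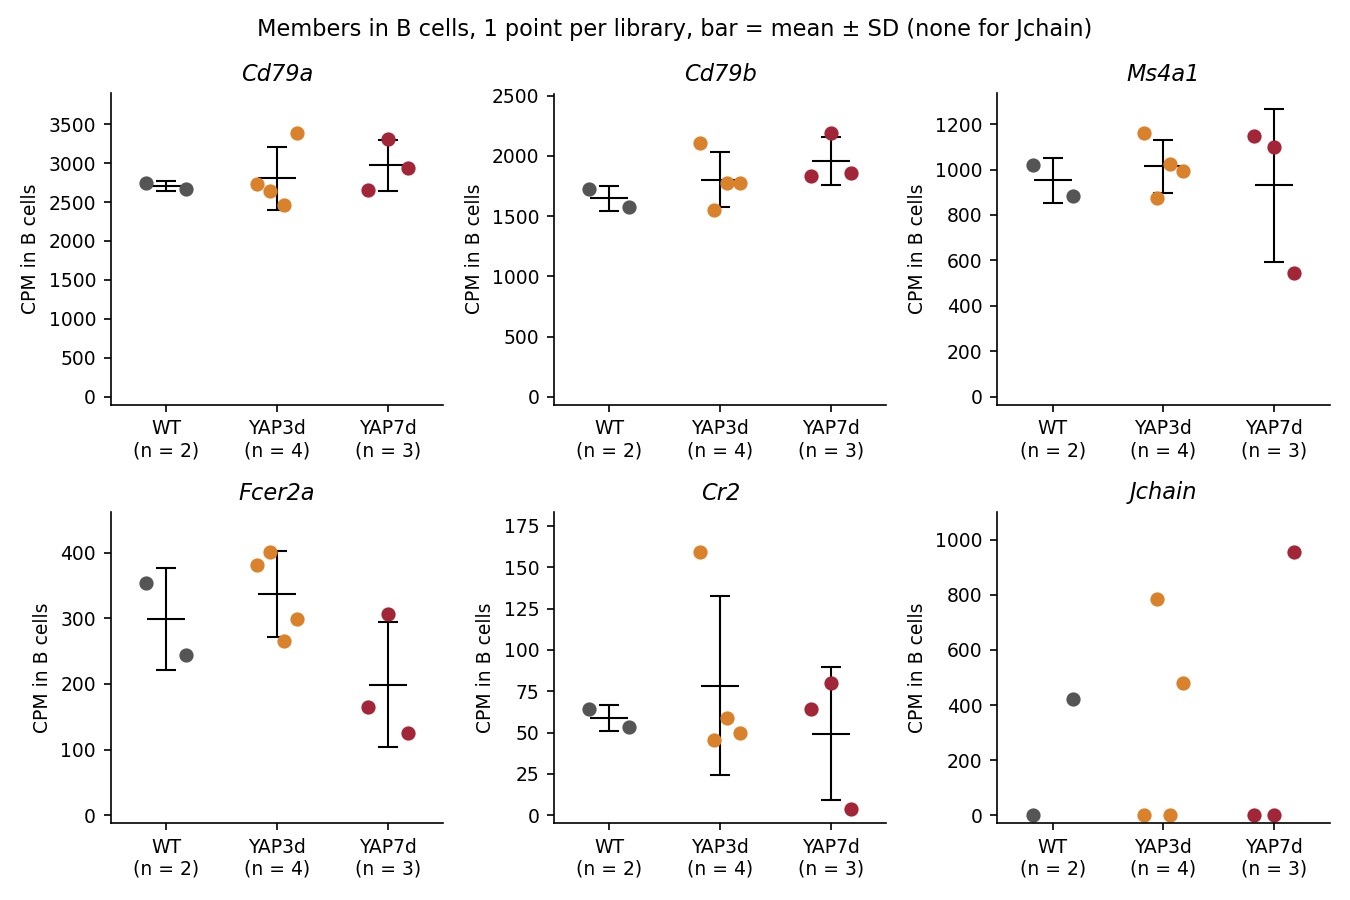
Level of the 6 analysed genes in B cells (CPM, linear axes) for each of the 9 libraries, grouped as WT (n = 2), YAP3d (n = 4) and YAP7d (n = 3), with the mean ± SD as bars except for Jchain. Cd79a and Cd79b set the cells and vary little; 2 of 3 YAP7d libraries lie lowest for Fcer2a, and Jchain is at 0 in 5 libraries.

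Fcer2a and Cr2 were found in overlapping sets of B cells. A UMI of Fcer2a was seen in 136 of 187 B cells with a Cr2 UMI, 72.7% (exact 95% interval 65.7% to 79.0%), and in 491 of 972 without one, 50.5% (47.3% to 53.7%). The median depth was 3281 UMIs for the cells with Cr2 and 3208 UMIs for those without. Within libraries with at least 10 Cr2-positive cells, the shares with and without Cr2 were 69.2% and 46.7% in WT replicate 2, 90.9% and 48.1% in YAP3d replicate 1, 76.8% and 53.9% in YAP3d replicate 4, and 66.7% and 42.9% in YAP7d replicate 2. The share was higher in Cr2-positive cells in each of these 4 libraries, whereas WT replicate 1, with 8 such cells, had 50% and 57.6%. The cells of a library are not replicates, and the intervals cover counting error only. In 481 of the 1159 B cells (41.5%) neither gene had a UMI.

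To compare shares of cells at 1 depth, each B cell was thinned to 1000 UMIs, which left out 1 B cell of WT and 3 of YAP3d. After thinning, Ms4a1 was found in 65.0% and 56.3% of WT B cells, in 75.0%, 50%, 56.8% and 56.1% of YAP3d B cells and in 53.1%, 57.4% and 39.1% of YAP7d B cells. Fcer2a was found in 22.5% and 23.8% in WT, in 16.7%, 34.4%, 32.4% and 25.6% in YAP3d and in 12.5%, 22.2% and 10.9% in YAP7d. Unthinned, Fcer2a had a UMI in 56.1% and 51.0% of WT B cells, in 60.5%, 65.6%, 50% and 57.3% of YAP3d B cells and in 31.2%, 48.1% and 32.6% of YAP7d B cells, so that YAP7d lay below the other groups without overlap (YAP7d minus YAP3d −21.0 percentage points, exact two-sided permutation p = 0.0286, the smallest possible, adjusted p = 0.343). After thinning, YAP7d overlapped with YAP3d and still lay below both WT libraries, at 22.2% against 22.5% where closest. Thinned to 2000 UMIs instead, YAP7d replicate 2 stood at 42.6% and WT replicate 2 at 40.9%, so these groups overlapped. In T cells, which should lack the gene, the share thinned to 1000 UMIs was 0.304% at a median depth of 4716 UMIs before thinning. The difference in the thinned Fcer2a share, YAP7d minus YAP3d, was −12.1 percentage points (exact two-sided permutation p = 0.114, adjusted p = 0.960 over 12 tests), and no share of the 4 genes passed in any of the 3 comparisons. The smallest p the design allows is 0.0667 for YAP3d against WT, 0.100 for YAP7d against WT and 0.0286 for YAP7d against YAP3d. Only the last could fall under 0.05 before adjustment, and none could after adjustment over the 12 tests. That no share passed therefore does not show that the shares were equal.

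**Figure D2:**
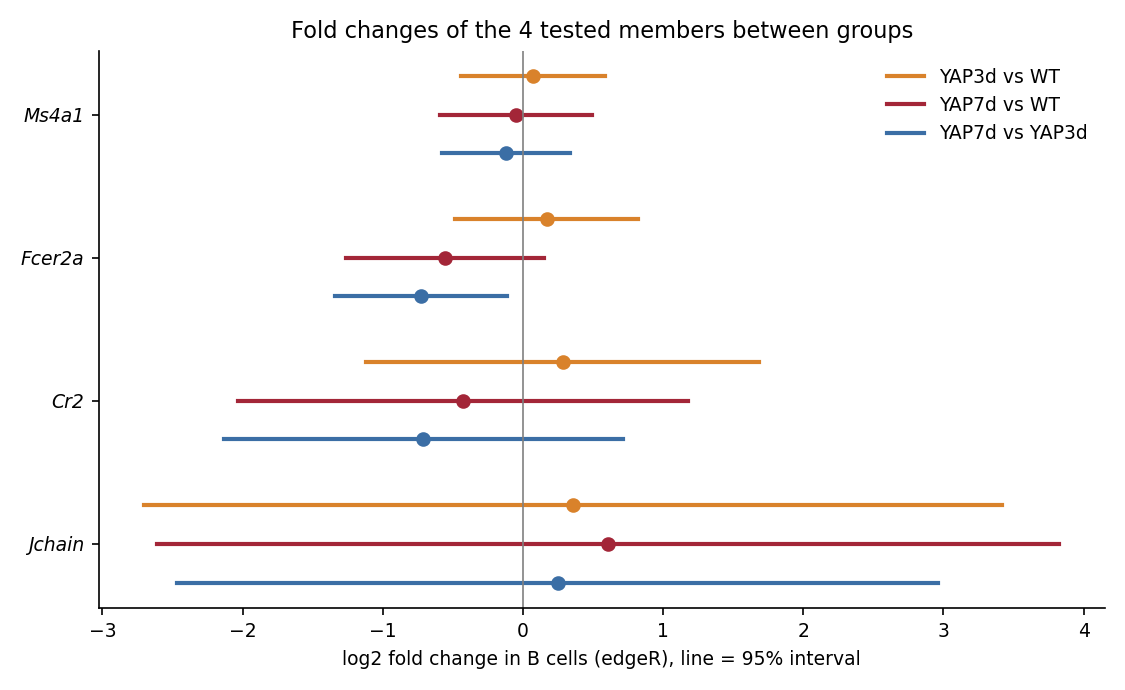
Log2 fold change of Ms4a1, Fcer2a, Cr2 and Jchain in B cells for the 3 comparisons between groups (edgeR), with 95% intervals as lines. The interval of Fcer2a for YAP7d against YAP3d, −1.34 to −0.12, is the only one that leaves out 0, before adjustment over 2229 genes; the Jchain intervals are the widest.

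Jchain was carried by a handful of cells. It was at 0 in the B cells of 5 libraries, WT replicate 1, YAP3d replicates 1 and 3 and YAP7d replicates 1 and 2, where 3 UMIs would have been 19.96 to 27.6 CPM. The other libraries had 422 CPM (WT replicate 2), 785 CPM (YAP3d replicate 2), 480 CPM (YAP3d replicate 4) and 957 CPM (YAP7d replicate 3). In each of these 4 libraries a single B cell supplied most of the UMIs: 327 of 332, 85 of 86, 1180 of 1244 and 244 of 259. Without these 4 cells, the remaining 1155 B cells held 85 Jchain UMIs in 32 cells, or 19.6 CPM, and no cell had more than 14. The fold changes of Jchain between groups thus rest on 4 cells (log2 0.36 ± 1.43 SE for YAP3d and 0.61 ± 1.505 for YAP7d against WT, edgeR adjusted p = 0.99995 and 0.997).

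The Jchain-rich cells also held the genes of antibody secretion. Over all classes, 6 cells had 50 or more Jchain UMIs; the threshold was chosen after the values were seen, in the gap between 14 and 85. Besides the 4 B cells, 2 were in YAP7d replicate 3, in an unnamed cluster (cluster 25) led by Elane, Ctsg, Mpo and cell cycle genes. Jchain was 10.6% of the UMIs counted, which leave out immunoglobulin, in the richest cell and between 1.04% and 2.14% in the other 5. Of the 13 plasma cell genes listed, each of the 6 cells held 11 to 13, and the list summed to 82.4 to 302 UMIs per 10000 in them, against a median of 8.76 and a highest value of 39.9 in the other B cells. Mzb1, a chaperone of IgM secretion, stood at 9272 CPM in the 6 cells and 498 CPM in the other B cells. Xbp1, the transcription factor of the secretory programme, stood at 1472 and 44.2 CPM. Tnfrsf17 (BCMA), a survival receptor of plasma cells, had 22 UMIs in 3 of the 6 cells and none in the other 1155 B cells. Fcer2a and Cr2 had no UMI in any of the 6 cells, and Ms4a1 had 12 UMIs, in 3 of them. Scrublet called none of the 6 a doublet. With 0 or 1 such B cell per library, their share was 0.345% of all B cells (exact 95% interval 0.0941% to 0.881%), and no difference between groups could be detected at this depth.

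**Figure D3:**
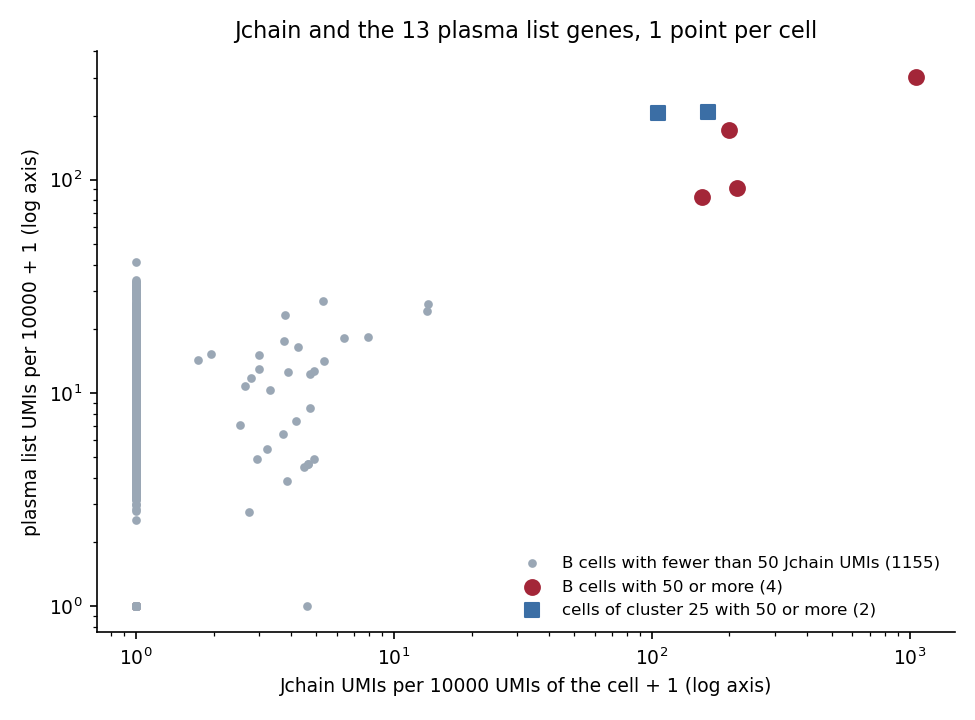
Jchain UMIs (horizontal) and the summed UMIs of 13 plasma cell genes (vertical), both per 10000 UMIs of the cell plus 1 on log axes, for the 1159 B cells and 2 cells of cluster 25. The 6 cells with 50 or more Jchain UMIs lie apart at the upper right, with 82.4 to 302 plasma list UMIs per 10000, and the other B cells reach 39.9.

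Genes around the receptor did not pass the test in B cells either. Of 2229 genes tested, edgeR called 0 (0% of the genes) for YAP3d against WT, 1 (0.0449%) for YAP7d against WT and 0 (0%) for YAP7d against YAP3d; at an unadjusted p under 0.05 there were 21 (0.942%), 93 (4.17%) and 139 (6.24%), and DESeq2 called 0, 5 and 5. None of the 4 tested members was called in a comparison. By unadjusted p, 1 of the 4 passed, Fcer2a in YAP7d against YAP3d. The called gene was Gm9844, a predicted gene, at 129 and 239 CPM in WT and 27.6, 33.3 and 44.3 CPM in YAP7d (log2 −2.36 ± 0.38 SE, edgeR adjusted p = 0.0380), with YAP3d between at 62.0 to 95.8 CPM. No gene was called in this comparison without WT replicate 2, without YAP3d replicate 1, 2 or 3, or without YAP7d replicate 1 or 2.

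Of 26 genes of B cell receptor signalling, 21 were tested and none passed in any of the 3 comparisons. Their median log2 fold change was 0.04 for YAP3d and −0.09 for YAP7d against WT, beside medians over all genes of 0.01 and 0.03. Bank1, an adaptor of the receptor, had means of 466 ± 126 CPM (SD, n = 2) in WT, 468 ± 53.4 (n = 4) in YAP3d and 467 ± 219 (n = 3) in YAP7d. Siglecg, an inhibitory lectin, had 320 ± 20.1, 344 ± 66.5 and 372 ± 81.1 CPM. Ptpn6, the phosphatase SHP-1 that such inhibitory receptors recruit, had 322 ± 11.4, 329 ± 75.4 and 312 ± 165 CPM.

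Of 16 follicular maturation genes 15 were tested and none passed, but the values of most were lower in YAP7d than in YAP3d. There the log2 fold change was below 0 for 13 of 15, with a median of −0.31 beside 0.01 over all genes. Ccr7, the chemokine receptor that guides lymphocytes to lymphoid tissue, had 861 ± 204 CPM (SD, n = 2) in WT, 873 ± 227 (n = 4) in YAP3d and 561 ± 174 (n = 3) in YAP7d, and its unadjusted p for YAP7d against YAP3d was 0.0214 (log2 −0.65 ± 0.25 SE, edgeR adjusted p = 0.661). Cd83, a marker of activated B cells, had a log2 fold change of −0.82 ± 0.34 in the same comparison (edgeR adjusted p = 0.692). With a term for the 3 libraries of over 1000 cells, which deviated together across groups, Cd83 passed (log2 −0.89 ± 0.21, edgeR adjusted p = 0.0287). Klf2, a factor of lymphocyte trafficking and quiescence, had 2494 ± 331, 2843 ± 715 and 2561 ± 823 CPM. Fcmr, the receptor for IgM, had 727 ± 52.7, 745 ± 53.3 and 666 ± 206 CPM.

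In the list of marginal zone and B-1 genes, 4 of 12 were tested and none passed. Ptpn22, a phosphatase that restrains antigen receptor signals, had 88.9 ± 44.9 CPM (SD, n = 2) in WT, 66.0 ± 22.3 (n = 4) in YAP3d and 151 ± 33.5 (n = 3) in YAP7d (log2 1.22 ± 0.32 SE for YAP7d against YAP3d, unadjusted p = 0.00180, edgeR adjusted p = 0.326). It passed with the term for the 3 large libraries (log2 1.19 ± 0.27, edgeR adjusted p = 0.0284). Plac8 had 913 ± 529, 644 ± 255 and 959 ± 711 CPM, and Zbtb20 145 ± 12.0, 136 ± 63.5 and 154 ± 95.2 CPM. Of the 13 genes of immature and transitional B cells, 2 were tested and did not pass: Cd24a at 303 ± 53.0, 343 ± 124 and 252 ± 35.0 CPM, and Vpreb3, a chaperone of the surrogate light chain, at 256 ± 105, 238 ± 47.1 and 255 ± 145 CPM. Spn (CD43) was too low to test, at 9.74, 4.79 and 19.8 CPM on average.

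Of 12 B lineage transcription factors 11 were tested and none passed, with medians of −0.00 for YAP3d and 0.00 for YAP7d against WT. Ebf1, the factor that specifies the lineage, had 1622 ± 573 CPM (SD, n = 2) in WT, 1797 ± 313 (n = 4) in YAP3d and 1614 ± 492 (n = 3) in YAP7d. Irf8 had 340 ± 111, 377 ± 125 and 389 ± 105 CPM, and Pou2f2 (Oct-2) 341 ± 18.6, 306 ± 24.4 and 360 ± 31.2 CPM. Of the 13 plasma cell genes 5 were tested over B cells and none passed. Mzb1 had 482 ± 147, 509 ± 151 and 554 ± 208 CPM, Sec11c, a signal peptidase subunit, 184 ± 78.7, 211 ± 52.2 and 228 ± 52.9 CPM, and Txndc5 92.5 ± 39.8, 96.7 ± 30.6 and 144 ± 45.7 CPM. The lambda light chain and switched heavy chain genes of the lists were not analysed here.

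Outside B cells, the analysed genes other than Jchain were found at low levels, and Cd79b stood higher there relative to Cd79a in the myeloid classes. Jchain reached 179 CPM in cluster 25, 40.9% of its B cell level, of which the 2 Jchain-rich cells described above held most. The B cells held 89.5% of all Cd79a UMIs, 92.9% of Ms4a1, 89.8% of Fcer2a and 90.2% of Cr2, but 79.5% of Cd79b and 66.4% of Jchain. In T cells the pooled level was 31.1 CPM for Cd79a and 24.2 CPM for Cd79b, 0.995% and 1.38% of the B cell levels. In endothelial cells it was 50.2 and 27.6 CPM, or 1.61% and 1.57%. In macrophages it was 14.2 and 44.7 CPM, or 0.456% and 2.54%, and in plasmacytoid dendritic cells, an interferon-producing cell type, 55.2 and 86.6 CPM, or 1.77% and 4.92%.

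The highest Cd79b outside B cells, as a mean over libraries with at least 10 cells of the class, was 91.5 ± 35.9 CPM (SD, n = 4) in plasmacytoid dendritic cells. Macrophages followed with 49.3 ± 37.2 CPM (n = 9), cluster 25 with 38.3 ± 15.6 (n = 3), monocytes with 34.6 ± 19.2 (n = 6), cluster 26 with 30.7 in its only library, neutrophils with 25.1 ± 19.9 (n = 4), NK cells with 22.3 ± 30.6 (n = 9), cholangiocytes with 21.7 ± 6.80 (n = 2), conventional dendritic cells with 17.4 ± 14.3 (n = 9), T cells with 15.1 ± 13.1 (n = 9) and endothelial cells with 12.5 ± 18.4 (n = 9). Hepatocytes and the cycling cluster 23 were lower, at 6.07 ± 11.5 (n = 6) and 6.66 ± 7.89 CPM (n = 4). Neighbours in this order did not differ beyond their spread. For Cd79a the order began with plasmacytoid dendritic cells (68.0 ± 75.6 CPM), NK cells (33.4 ± 51.6), neutrophils (32.7 ± 32.5) and monocytes (26.7 ± 23.2), with cluster 26 at 46.1 CPM in its only library, all with overlapping spreads, and macrophages stood at 15.7 ± 17.9 CPM. Ms4a1, Fcer2a and Cr2 averaged at most 23.7, 6.60 and 4.42 CPM in any class outside B cells.

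**Figure D4:**
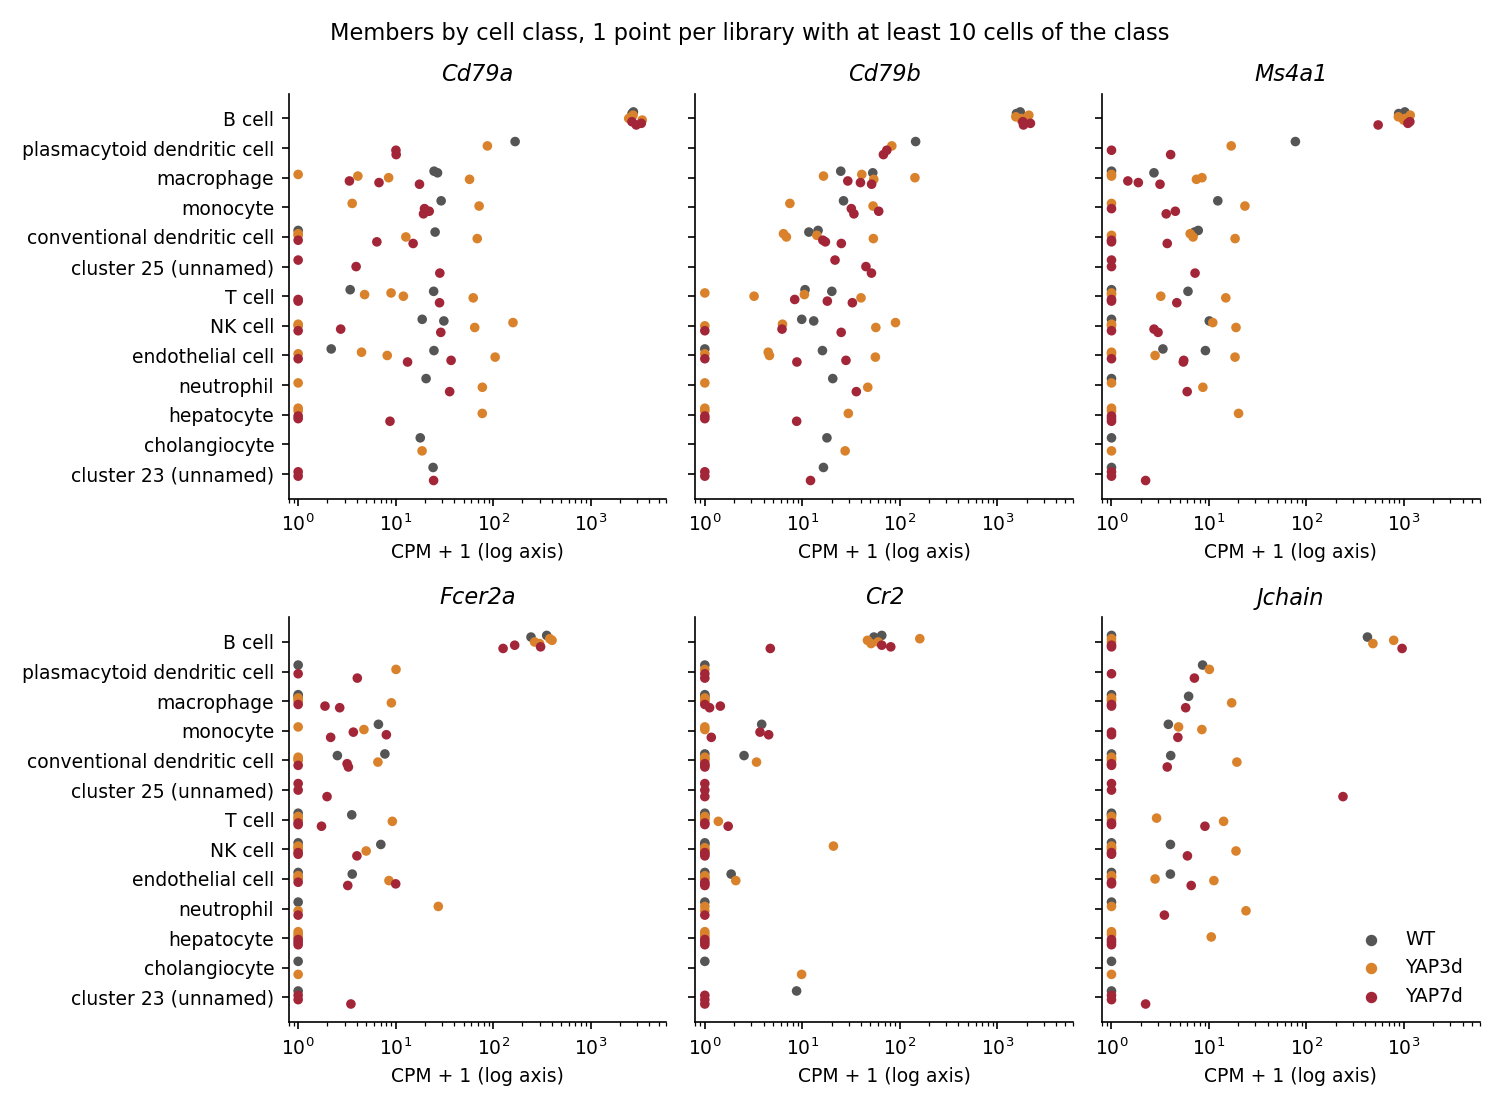
Level of the 6 genes (CPM + 1, log axis) in each cell class, 1 point per library with at least 10 cells of the class, coloured by group; a point at 1 is a library with no UMI. B cells lie above the other classes for Cd79a, Cd79b, Ms4a1 and Fcer2a. For Cr2 the B cells of YAP7d replicate 3, at 3.70 CPM, lie among the other classes, and for Jchain 5 libraries have no UMI in B cells and 1 library of cluster 25 reaches 236 CPM.

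The composition of the Cd79 pair differed between classes. Cd79b made up 36.0% of the Cd79a and Cd79b UMIs in B cells (exact 95% interval 35.4% to 36.6%) and 35.5% in endothelial cells (32.0% to 39.1%). It was 43.8% in T cells (39.1% to 48.6%) and 44.0% in NK cells (36.2% to 52.1%). It was 51.4% in conventional dendritic cells (45.4% to 57.5%), 61.0% in monocytes (56.4% to 65.5%), 61.1% in plasmacytoid dendritic cells (53.2% to 68.5%), 65.6% in cluster 25 (60.2% to 70.7%) and 75.8% in macrophages (72.9% to 78.6%). These values are a description with no test, since both chains set which cells count as B cells. Cluster 25, with a UMI of Cd79b in 56.6% and of Cd79a in 28.9% of its cells, stayed outside the B cells through Cd79a alone.

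The macrophage value was above that of the B cells of the same library in all 7 libraries with 10 or more such UMIs, at 48.5% to 95%, with a median of 83.3%. The counts were 30 Cd79b and 15 Cd79a UMIs in WT replicate 2, 10 and 2 in YAP3d replicate 2, 19 and 1 in YAP3d replicate 3, 33 and 35 in YAP3d replicate 4, 60 and 5 in YAP7d replicate 1, 87 and 13 in YAP7d replicate 2, and 423 and 139 in YAP7d replicate 3. By the same rule monocytes were above the B cells in 5 of 5 libraries, endothelial cells in 4 of 4, T cells and plasmacytoid dendritic cells each in 3 of 3, neutrophils and cluster 25 each in 2 of 2, conventional dendritic cells in 2 of 3, NK cells in 2 of 4, cluster 26 in 1 of 1, and hepatocytes and cluster 23 each in 0 of 1. The endothelial values, 34.7% to 42.9%, stayed near those of the B cells, 34.3% to 43.6%. In YAP3d replicate 4, the library with the most B cells, the macrophage value was the lowest of the 7.

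Among the macrophage clusters, Cd79b was 81.3% of the pair in the Cx3cr1-led cluster (exact 95% interval 77.6% to 84.7%), 72.5% in the cluster led by Marco and Fabp7 (67.4% to 77.2%) and 54.8% in the cluster led by Cxcl13 and C6 (42.7% to 66.5%). YAP7d replicate 3 alone held 291 of the 467 cells of the first, and the YAP7d libraries held 93, 140 and 144 of the 482 cells of the second. WT replicate 2 and YAP3d replicate 4 held 47 and 59 of the 127 cells of the third. Within YAP7d, the Cx3cr1-led and the Marco-led cluster had 91.7% and 92.7% in replicate 1, 93.1% and 84.3% in replicate 2, and 80.2% (75.7% to 84.1%) and 66.0% (58.8% to 72.6%) in replicate 3, so the order of these 2 clusters was not the same in every library. The Cxcl13-led cluster had 56.7% in WT replicate 2 and 52.5% in YAP3d replicate 4, where the Cx3cr1-led cluster had 85.7% and 55%, from 14 and 20 UMIs. After thinning to 1000 UMIs a cell, Cd79b had a UMI in 4.597% of macrophages (3.42% to 6.03%), 2.13% of T cells (1.49% to 2.94%) and 2.33% of endothelial cells (1.70% to 3.12%). Cd79a had one in 1.78% (1.08% to 2.77%), 2.67% (1.95% to 3.57%) and 3.45% (2.67% to 4.37%), and Ms4a1 in 0.0938%, 0.608% and 0.955%. The pooled cells of these classes come from the libraries in different proportions, and the intervals cover counting error only, so the classes are described here and not compared by a test. Unthinned, 36.5% of macrophages had a Cd79b UMI at a median depth of 11903 UMIs.

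**Figure D5:**
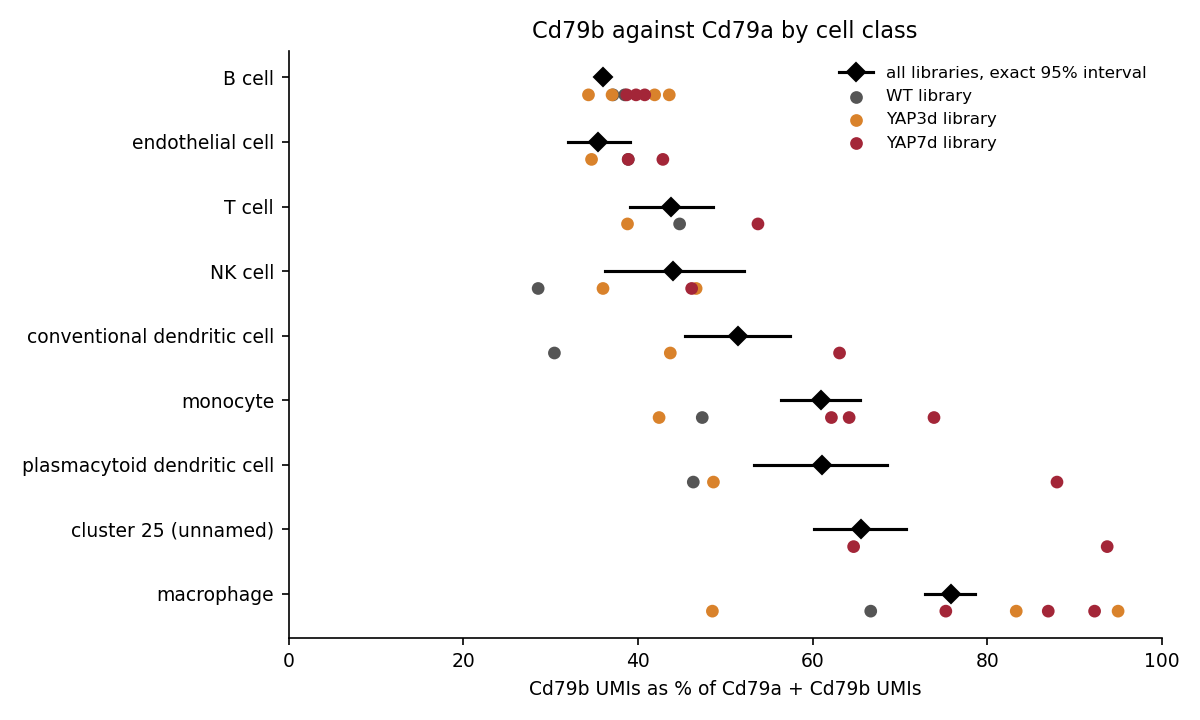
Cd79b UMIs as a percent of Cd79a plus Cd79b UMIs by cell class, with diamonds for all libraries together (exact 95% intervals) and points for libraries with at least 10 such UMIs, coloured by group. B cells lie at 36.0%, endothelial cells at 35.5% and macrophages at 75.8%.

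The genes whose levels were most like those of each member were mostly other B cell genes. Over 84 sums of a class in a library, Pearson's r of log2(CPM + 10) was computed with 10539 genes; the points share libraries and depth, and the values are descriptive. Closest to Cd79a were Ebf1 (r = 0.961), Fcmr (0.957) and Ms4a1 (0.956). Closest to Cd79b were Cd79a (0.936), Ebf1 (0.924) and Ms4a1 (0.924). Ms4a1 was nearest to Pou2af1 (0.980) and Pax5 (0.973), Fcer2a to Pax5 (0.970) and Pou2af1 (0.961), and Cr2 to Pax5 (0.935), Vpreb3 (0.912) and Fcer2a (0.907). Jchain was nearest to Mzb1 (0.618) and Cxcr5 (0.607), and its r with the other 5 members was 0.312 to 0.578, whereas those 5 had r of 0.835 to 0.956 with one another.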

How the data were processed

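By the study's methods, livers were minced and digested with dispase and collagenase to isolate single cells other than hepatocytes. These libraries, which the study calls entire liver tissue, were made on the 10x Chromium platform with v2 reagents. The authors' deposited table holds UMI counts per gene and cell, made with Cell Ranger on mm10 per the labels' processing notes, with Seurat version 2 also named there. Every cell column was mapped to a library. Cells with under 200 genes were left out (35 of 8562). Cells were clustered with scanpy 1.11.5 (2478 variable genes without the members, 30 components, 15 neighbours, Leiden resolution 1), which gave 27 clusters. Clusters were named from 164 markers, and 326 cells stayed unnamed. A cluster with none of its class's markers among its 10 leading genes was named only if most of them were raised, well ahead of the next class; this rule was added after the data were seen. Scrublet called 60 doublets (0.704%), which were kept. The members and lists were chosen with earlier results of these data known.

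B cell counts were added up within each library and tested in edgeR 4.0.16 by quasi-likelihood F (R 4.3.3; filterByExpr, TMM, 3 groups in 1 fit, Benjamini-Hochberg adjusted p under 0.05 over 2229 genes); SE is the log2 fold change over the root of F. DESeq2 1.42.0 was a second tool. The edgeR fit was tested on simulated data with known changes, and DESeq2 was not. Shares were compared with exact two-sided permutation tests, adjusted over the 12 tests that could be run (scipy 1.17.1); those on immunoglobulin genes were not run. Intervals are Clopper-Pearson at 95% and, like the floor of 3 counts, cover counting error only. Named genes were the members, the 3 most abundant genes of each list with any that passed, called genes, the 3 genes most alike in level to each member (1 gene among these is not reported here), and Cd83, Tnfrsf17 and Xbp1, which were chosen after their values were seen.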

Additional observations from a re-analysis of the deposited data

Results flagged for a closer look

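In the 4 YAP3d libraries, 12 values were checked for a library far from the others (the level and the thinned share of each of the 6 genes), and chance flags about 1 in 20. Cr2 stood out in YAP3d replicate 1 on both scales: 159 CPM, where the next library had 59.0 CPM, and 19.4% of B cells with a UMI after thinning, where the next had 5.41%. The 2 values come from the same 18 UMIs in 38 cells.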

How the results depend on the processing

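No member passed the threshold under any alternative: over 185 fold changes the lowest adjusted p was 0.159 (edgeR), and over 144 differences in shares it was 0.343 (exact permutation). With so few libraries no share could pass after adjustment in any setting, so that outcome was fixed by the design. Genes called for YAP3d against WT, YAP7d against WT and YAP7d against YAP3d numbered 0, 5 and 5 with DESeq2 and 5, 42 and 52 without the filter on low counts. Of the genes in the lists, 1 was then called for YAP7d against YAP3d, Tnfrsf17, whose 15 UMIs in YAP7d all came from 1 Jchain-rich cell of replicate 3. For YAP7d against WT the count was 0 when every cell with both Cd79 chains was taken, and 7 without doublets and cells holding markers of other classes. In the set with both chains, also used for signs below, only 46 of the 176 cells of YAP7d replicate 3 were in the B cell cluster. A term for the 3 libraries with over 1000 cells, chosen after seeing the data because these libraries deviated together, gave 1, 34 and 32 genes. Of the lists, 2 genes were then called for YAP7d against YAP3d, Ptpn22 and Cd83. Leaving out 1 library gave 0 to 6 genes for YAP7d against WT (6 without YAP7d replicate 3, 4 without YAP3d replicate 4, 2 without WT replicate 1, and 0 without WT replicate 2, YAP3d replicates 1 to 3 or YAP7d replicates 1 and 2) and 0 to 1 for YAP7d against YAP3d (1 without YAP3d replicate 2).

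The replicate numbers share only a number: correlations of same-numbered libraries ran from −0.487 to 0.420. With the replicate block, 0, 20 and 0 genes were called. The block turned the sign of Ms4a1 for YAP7d against WT (0.045) and of Jchain for YAP3d (−0.28) and YAP7d (−0.032) against WT.

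Signs of small fold changes also turned for YAP3d against WT in Ms4a1 (−0.063) and Jchain (−0.88) and for YAP7d against WT in Jchain (−0.77) when every cell with both chains was taken, for Ms4a1 in YAP7d against WT without doublets and marker-bearing cells (0.018), and with the large-library term for Cr2 in YAP3d against WT (−0.0031) and Jchain in YAP7d against YAP3d (−1.01). Thinned to 2000 UMIs, the differences in share for YAP3d against WT were 1.16 points for Ms4a1 and 1.48 for Cr2, and that of Jchain for YAP7d against YAP3d was −0.696, or −0.393 without thinning. Leaving out 1 library gave fold changes for YAP3d against WT of −0.069 to 0.35 for Fcer2a and −0.45 to 0.73 for Jchain. For YAP7d against WT they were −0.17 to 0.18 for Ms4a1, −0.67 to 0.29 for Cr2 and −0.20 to 1.17 for Jchain. For YAP7d against YAP3d they were −0.25 to 0.11 for Ms4a1, −0.98 to 0.036 for Cr2 and −0.14 to 0.89 for Jchain. Differences in share ran from −6.37 to 3.15 points for Ms4a1 and −3.77 to 1.84 for Cr2 in YAP3d against WT, and for Jchain from −0.243 to 3.02 in YAP7d against WT and −1.12 to 2.14 in YAP7d against YAP3d. Cd79b as a percent of the pair ran from 54.5 to 64.1 in monocytes, 56.3 to 71.0 in plasmacytoid dendritic cells and 35.8 to 38.7 in B cells. The cause of these changes was not tested. Fold changes of Jchain against a group left at 0 were not computed. The kappa and lambda comparison was not run, nor was the alternative of totals without immunoglobulin genes, since the totals used already hold none.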
